A study of Rattus norvegicus with 8 samples.

Results

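Cytokines and chemokines are secreted proteins through which injured tissue signals to neighbouring and circulating cells. Cardiac fibroblasts and the myofibroblasts derived from them are known sources of these proteins in the damaged heart, where NF-κB and interferon signaling drive much of their transcription. Among the genes measured in these cultures were 6 that encode inflammatory ligands, namely the cytokines Il6 (ENSRNOG00000010278) and Il1b (ENSRNOG00000004649) and the chemokines Ccl2 (ENSRNOG00000007159), Cxcl1 (ENSRNOG00000002802), Cxcl10 (ENSRNOG00000022256) and Ccl5 (ENSRNOG00000010906). These were chosen by Ensembl ID, out of 21867 genes in the table of estimated counts. The tables hold IDs without symbols, and the pairing of each ID with its symbol came with the list of genes and could not be checked against the files.

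RNA sequencing was performed on 8 libraries of primary rat cells in 4 groups of 2, which the labels describe as biological replicates. Cardiac fibroblasts (CF) were isolated from neonatal Wistar Kyoto rats and grown in medium with 10% fetal bovine serum (FBS). Myofibroblasts (MF) were obtained from CFs by continuous passaging in low-serum medium, and MFs were exposed to direct current at 1 µA/cm2 (1 µA) or 2 µA/cm2 (2 µA) for 72 h through electrodes in the culture medium, while being kept in medium with 10% FBS. The sources used here do not give the medium of the untreated MFs, nor whether these were kept for the same 72 h. An effect of the current therefore cannot be told apart from one of the serum, of time in culture or of handling. The MFs differ from CFs in passage and serum together. Estimated counts summed to between 26473085 and 37903701 per library. All 6 genes passed the filter on low counts, which kept 13849 genes, although Ccl5 passed only through the MF libraries, in which it was highest. A gene kept in this way had to differ from MF, so Ccl5 is described by its own counts and left out of the counts and medians over the other 5 genes. Levels are given as CPM (reads of a gene relative to the TMM-scaled size of its library), and they are compared between libraries and not between genes, because CPM does not correct for gene length. Genes count as called where the Benjamini-Hochberg adjusted p, taken over all genes tested, was below 0.05 and the difference was at least 2-fold. Markers of fibroblasts, leukocytes and other cell types were not analysed here, since their symbols could not be paired with IDs. In such bulk cultures a lower share of cells that express a gene and less RNA per cell cannot be told apart.

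The stretch of DNA just before a gene's start holds many of the sites through which NF-κB and related factors act on these genes. RefSeq sequences of 250 bases before the annotated start were found for 4 of the 6 genes (Il6, Il1b, Cxcl1 and Cxcl10) and are shown. Whether matches in them bear on the expression of these genes was not tested. The build is GRCr8, whereas the counts were made on rn6. Both strands were searched for the NF-κB consensus, the AP-1 site TGANTCA, the CRE TGACGTCA, the IRF core AANNGAAA and the TATA box TATAAA, and capitals mark the matches.
Il6 (GRCr8, chr4:5894576-5894825, minus strand): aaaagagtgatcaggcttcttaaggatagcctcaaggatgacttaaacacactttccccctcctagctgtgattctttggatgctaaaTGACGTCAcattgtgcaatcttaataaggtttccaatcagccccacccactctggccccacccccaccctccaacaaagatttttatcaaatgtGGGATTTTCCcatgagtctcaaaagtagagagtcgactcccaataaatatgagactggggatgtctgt
Il1b (GRCr8, chr3:137036582-137036831, minus strand): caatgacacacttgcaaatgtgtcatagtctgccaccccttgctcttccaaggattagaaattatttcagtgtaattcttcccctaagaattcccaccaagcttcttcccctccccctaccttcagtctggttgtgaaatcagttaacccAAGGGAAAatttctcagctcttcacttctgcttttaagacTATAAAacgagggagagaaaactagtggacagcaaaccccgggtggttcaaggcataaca
Cxcl1 (GRCr8, chr14:17479322-17479571, minus strand): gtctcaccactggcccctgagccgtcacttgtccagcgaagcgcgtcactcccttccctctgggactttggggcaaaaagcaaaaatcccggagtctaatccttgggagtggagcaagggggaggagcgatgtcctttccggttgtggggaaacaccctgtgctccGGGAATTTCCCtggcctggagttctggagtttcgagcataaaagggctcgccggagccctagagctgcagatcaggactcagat
Cxcl10 (GRCr8, chr14:15988816-15989065, plus strand): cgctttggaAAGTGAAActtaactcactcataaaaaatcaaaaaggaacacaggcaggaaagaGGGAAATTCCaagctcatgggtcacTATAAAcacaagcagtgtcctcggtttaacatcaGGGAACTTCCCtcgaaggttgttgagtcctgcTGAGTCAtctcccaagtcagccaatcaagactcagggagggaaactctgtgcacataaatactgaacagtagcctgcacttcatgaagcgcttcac
The NF-κB consensus was matched in Il6 (from 68 to 59 bases before the start), in Cxcl1 (84 to 75, with an overlapping match on the other strand from 83 to 74) and in Cxcl10 (187 to 178 and 128 to 119, the latter overlapped by a match on the other strand from 127 to 118). No match was found in these 250 bases of Il1b. Of 33469 RefSeq promoter windows of the same length, 6.33% held the NF-κB consensus. Cxcl10 also held a match to the IRF core from 241 to 234 bases before the start (23.3% of all windows). It matched the AP-1 sequence from 96 to 90 (6.34%) and the letters TATAAA from 162 to 157 (12.9%). Il6 held a match to the CRE from 162 to 155 bases before the start (1.59%). Il1b matched the IRF core from 100 to 93 and the letters TATAAA from 60 to 55. In the GRCr8 annotation several of the genes sit beside relatives, with Il1b next to Il1a, Ccl2 next to Ccl7, Cxcl1 next to Cxcl2, and Cxcl10 between Cxcl11 and Cxcl9.

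The comparison of MF with CF asks how expression of these ligands changed as fibroblasts were turned into myofibroblasts. Il6, Il1b, Ccl2, Cxcl1 and Cxcl10 (5 of 5) were called higher in MF, while 6.36% of all genes tested were called higher in this comparison. Both MF libraries lay above both CF libraries for each of the 5 genes, which held for 31.3% of all genes. The median log2 fold change over the 5 genes was 4.11, against -0.026 over all genes tested. Il1b had the largest fitted difference of the 6 and stood in place 20 from the top among 13849 genes.

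Il1b encodes the precursor of interleukin-1 beta, a cytokine that starts inflammatory signaling through the interleukin-1 receptor. Its level was 0.345 and 0.458 CPM in the CF libraries and 135 and 146 CPM in the MF libraries. These levels rest on estimated counts of 13 and 14 in CF and of 3598 and 3873 in MF. The fitted difference was 8.45 on the log2 scale (SE 0.27, adjusted p = 3.91e-05).

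Il6 encodes interleukin-6, which signals through the shared receptor subunit gp130 and drives the acute-phase response. Its level was 0.583 and 1.44 CPM in CF and 7.18 and 7.75 CPM in MF. The log2 fold change was 2.90 (SE 0.48, adjusted p = 0.0112), the smallest of the 6.

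Among the chemokines, Ccl2 (MCP-1) attracts monocytes through the receptor CCR2. Its level rose from 52.4 and 105 CPM in CF to 1288 and 1429 CPM in MF, a log2 fold change of 4.11 (SE 0.37, adjusted p = 0.00201). Cxcl1 encodes an attractant of neutrophils that binds CXCR2. It stood at 3.42 and 25.5 CPM in CF and at 374 and 397 CPM in MF (log2 fold change 4.74, SE 0.96, adjusted p = 0.0204). The CF libraries differed 7.47-fold from each other for Cxcl1, whereas the MF libraries differed 1.06-fold, and Il6 and Ccl2 were likewise higher in CF replicate 2 than in CF replicate 1, by 2.47-fold and 2.00-fold.

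Cxcl10 and Ccl5, both known as interferon-inducible attractants of T cells, were low in every group. Cxcl10 was at 0.265 and 0.295 CPM in CF and at 2.88 and 6.88 CPM in MF, with a log2 fold change of 4.11 (SE 0.49, adjusted p = 0.00416). The MF libraries differed 2.39-fold from each other, the widest gap within MF among the 6 genes. Ccl5 had estimated counts of 0 and 1 in CF and of 18 and 13 in MF. From the counts of each group pooled and scaled to library size, its level in MF was 39.7 times that in CF. The exact 95% interval, from 6.61 to 1617, covers counting error only. Neither serves as support for a difference, because Ccl5 passed the filter only through MF.

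**Figure D1:**
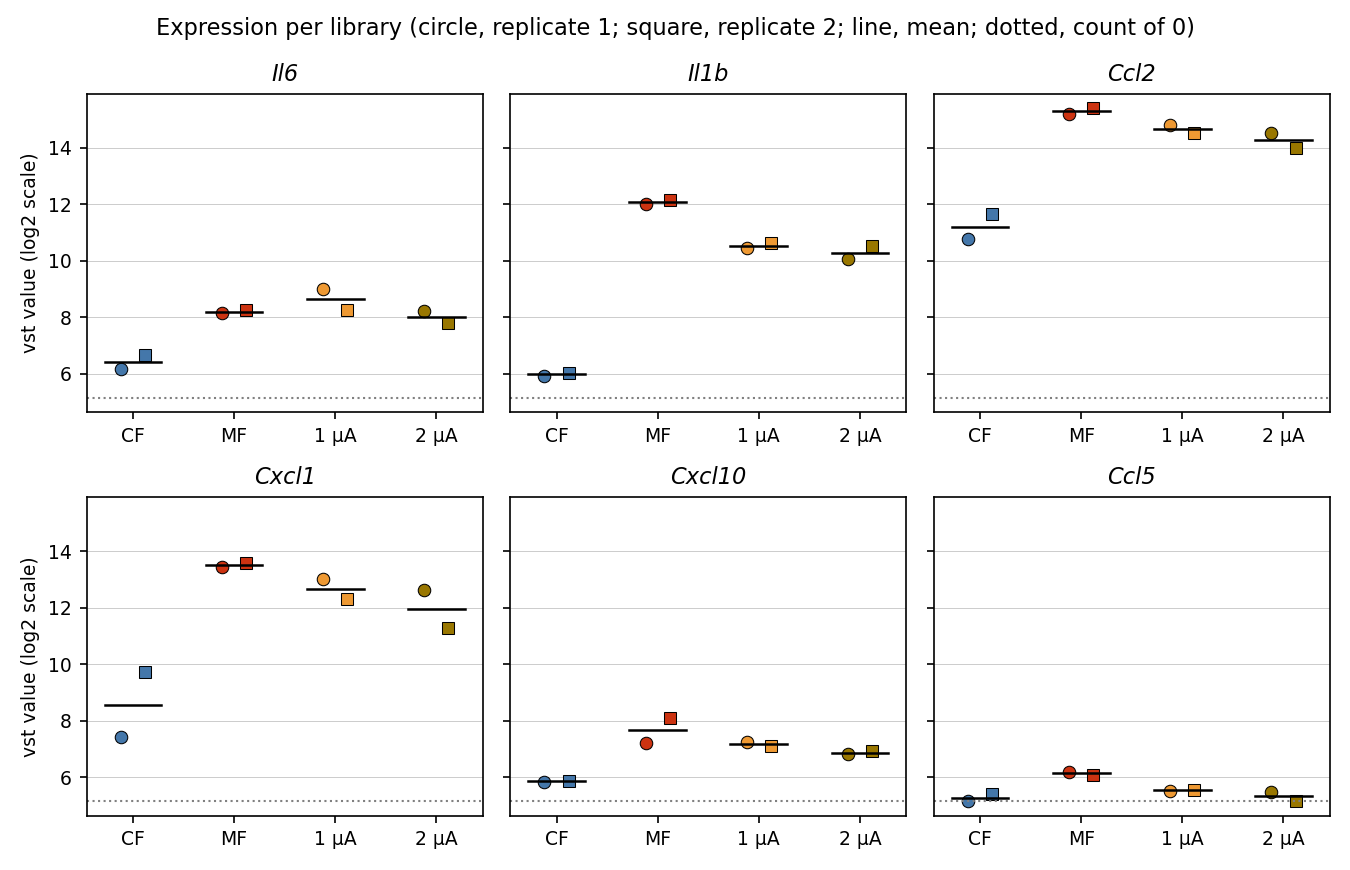
Variance stabilised expression (vst, log2 scale, as deposited; vertical axis) for each of the 6 genes in the 2 libraries of CF, MF, 1 µA and 2 µA, with circles for replicate 1, squares for replicate 2 and a line at the group mean; the dotted line at 5.15 is the value of a count of 0. The mean of CF was lowest for every gene, at 5.98 for Il1b against 12.1 in MF, although the CF and 2 µA libraries overlapped for Ccl5. The treated libraries lay between CF and MF for Il1b, Ccl2 and Cxcl1.

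With 1 MF library left out, Il1b, Ccl2 and Cxcl10 were called, while the share of all genes called in either direction fell from 10.4% to 2.38% without MF replicate 1 and to 2.62% without MF replicate 2. Il6 and Cxcl1 were then not called, with log2 fold changes of 2.84 or more. Leaving out a CF library moved the fold change of Cxcl1, to 3.93 on the log2 scale without CF replicate 1 and 6.81 without CF replicate 2. It moved that of Il6 to 2.38 and 3.67 and that of Ccl5 from 4.95 to 4.00 and 7.15. The log2 fold change of Cxcl10 was 4.61 without MF replicate 1 and 3.35 without MF replicate 2.

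Against MF, the question was whether current altered the expression of these ligands in differentiated myofibroblasts. Il1b fell at both current densities. It was the only one of the 5 genes called at 1 µA, where 2.27% of all genes were called lower, and the only one called at 2 µA, where 2.66% were. For the mean of both treated groups, Il1b was again the only one of the 5 called lower, beside 3.88% of all genes, and none was called higher in any of these comparisons, which share the MF libraries. The median log2 fold change of the 5 genes was -0.82 at 1 µA and -1.37 at 2 µA, while the median over all genes was 0 at 1 µA and 0.0030 at 2 µA.

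Il1b measured 43.6 and 50.3 CPM in the 1 µA libraries and 32.9 and 46.2 CPM in the 2 µA libraries, against 135 and 146 CPM in MF. The 4 treated libraries thus held between 23.5% and 35.9% of the MF mean, with no overlap with the MF libraries. The log2 fold change was -1.58 at 1 µA (SE 0.18, adjusted p = 0.0115), -1.82 at 2 µA (SE 0.18, adjusted p = 0.00771) and -1.70 for the mean of both (SE 0.15, adjusted p = 0.00277). The call at 1 µA was lost when any one of the 4 libraries compared was left out, with adjusted p values from 0.0741 to 0.116 and log2 fold changes from -1.69 to -1.48. In the same 4 fits the number of all genes called fell from 543 to between 4 and 47. At 2 µA the call was lost without MF replicate 1 or 2 (adjusted p = 0.104 and 0.0827), where 9 and 11 of all genes were called in place of 640. For the mean of both it was lost without MF replicate 1 (adjusted p = 0.0573), where 17 of all genes were called in place of 936.

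Il6 was not called at either current density. Its level was 7.18 and 7.75 CPM in MF, 14.6 and 8.09 CPM at 1 µA, and 7.61 and 5.28 CPM at 2 µA. Both 1 µA libraries lay above the MF libraries, as they did for 33.7% of all genes, 1 of the 2 µA libraries lay between them and the other below. The log2 fold change was 0.60 at 1 µA (95% interval -0.38 to 1.59, adjusted p = 0.401), -0.21 at 2 µA (-1.21 to 0.78, adjusted p = 0.778) and 0.20 for the mean of both (-0.67 to 1.06, adjusted p = 0.745). Its direction turned to -0.047 for the mean of both without 1 µA replicate 1, the library with the highest value, and to 0.028 at 2 µA without 2 µA replicate 2. In the table of whole-number counts Il6 had 332 and 194 counts at 1 µA, 175 and 125 at 2 µA, and 162 and 163 in MF.

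The ratio of Il1b to Il6 within a library, chosen after these values were seen, was 18.7 and 18.8 in MF, 2.99 and 6.22 at 1 µA, and 4.32 and 8.76 at 2 µA, as CPM of one gene over CPM of the other. It restates the values of both genes above and was not tested. In CF the ratio was 0.591 and 0.318.

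Ccl2 measured 911 and 798 CPM at 1 µA and 785 and 541 CPM at 2 µA, against 1288 and 1429 CPM in MF. Each treated library lay below both MF libraries, at 39.8% to 67.1% of the MF mean. The log2 fold change was -0.67 at 1 µA (95% interval -1.45 to 0.12, adjusted p = 0.252) and -1.03 at 2 µA (-1.82 to -0.25, adjusted p = 0.101), and neither was called. For the mean of both it was -0.85 (-1.51 to -0.19, adjusted p = 0.0843), also not called. At 1 µA the fit with the compared groups alone gave an adjusted p of 0.0101, with a difference below 2-fold. For the mean of both, DESeq2 gave 0.0111, again below 2-fold. DESeq2 called the difference at 2 µA (adjusted p = 0.00929), as did the fits with the compared groups alone (0.0415) and without CF replicate 1 or 2 (0.0194 and 0.0192). Cxcl1 was at 263 and 167 CPM at 1 µA and 207 and 79.7 CPM at 2 µA, against 374 and 397 CPM in MF. The current densities overlapped for Cxcl1, unlike for Ccl2, and each treated library again lay below both MF libraries. Its treated libraries ranged from 20.7% to 68.2% of the MF mean, a 3.30-fold span, and its log2 fold changes of -0.84 at 1 µA (adjusted p = 0.549) and -1.43 at 2 µA (adjusted p = 0.311) had 95% intervals of -2.79 to 1.10 and -3.39 to 0.54. The log2 fold change of Cxcl1 at 2 µA was -2.28 without 2 µA replicate 1 and -0.89 without 2 µA replicate 2. For the mean of both groups it was -1.13 (95% interval -2.75 to 0.48, adjusted p = 0.294). At 1 µA the fit with the compared groups alone gave an adjusted p of 0.0430 for Cxcl1, with a difference below 2-fold.

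Cxcl10 measured 2.96 and 2.58 CPM at 1 µA and 1.73 and 2.04 CPM at 2 µA, against 2.88 and 6.88 CPM in MF. The 1 µA libraries overlapped the lower MF library, MF replicate 1, whereas both 2 µA libraries lay below it. The log2 fold change was -0.82 at 1 µA (adjusted p = 0.252) and -1.37 at 2 µA (95% interval -2.35 to -0.39, adjusted p = 0.0862). For the mean of both it was -1.09 (-1.90 to -0.29, adjusted p = 0.0747). It depended on MF replicate 2, the highest of the 8 libraries for this gene, and was -0.057 at 1 µA and -0.61 at 2 µA without it (adjusted p = 0.952 and 0.405). DESeq2 called Cxcl10 lower at 2 µA (adjusted p = 0.0353) and for the mean of both (adjusted p = 0.0439). Ccl5 had estimated counts of 2 and 3 at 1 µA and of 2 and 0 at 2 µA, against 18 and 13 in MF. From pooled counts scaled to library size, its level in MF was 6.98 times that at 1 µA (exact 95% interval 2.69 to 23.0, counting error only). It was 18.0 times that at 2 µA (4.59 to 155) and 10.1 times that of both treated groups (4.38 to 27.3). Without 2 µA replicate 1 the fitted log2 fold change moved from -4.01 to -7.15 at 2 µA and from -3.38 to -4.95 for both groups. Without 2 µA replicate 2 it moved to -3.10 at 2 µA and to -2.92 for both groups. Because Ccl5 passed the filter only through MF, its ratios, intervals and calls against MF cannot serve as support. Its calls are named only further below, where they enter counts over the processing settings.

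**Figure D2:**
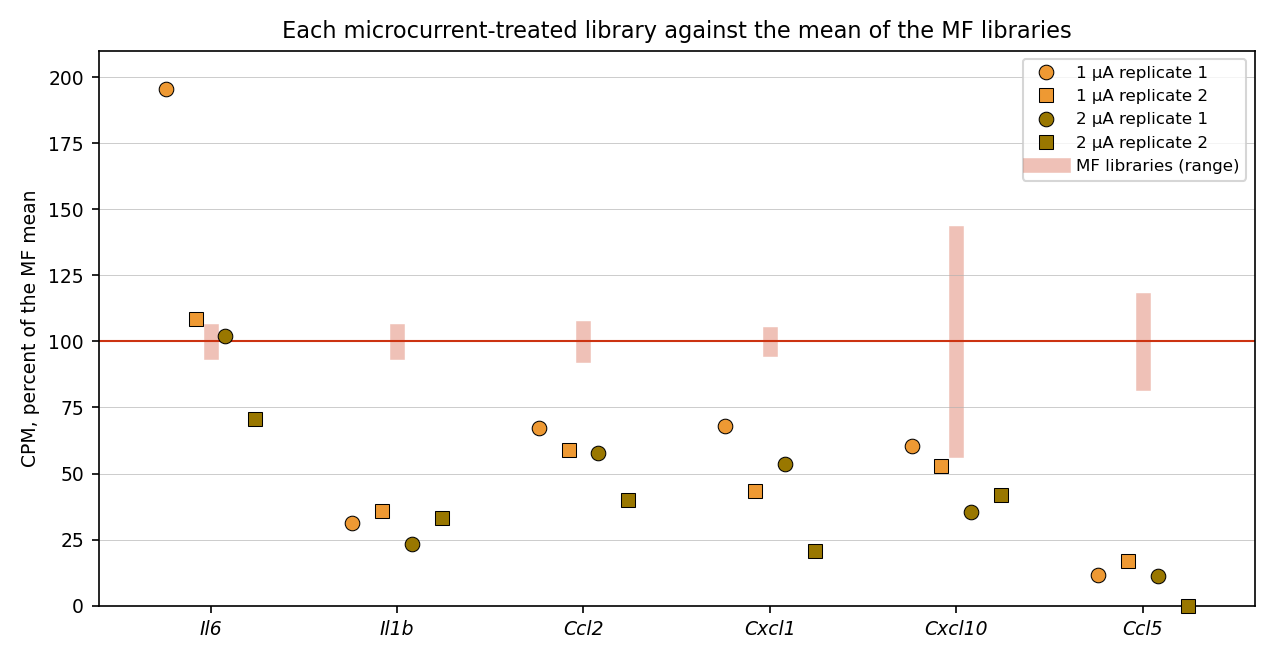
CPM of each microcurrent-treated library as a percentage of the mean of the 2 MF libraries (vertical axis) for the 6 genes, with circles for replicate 1 and squares for replicate 2; the line at 100 is the MF mean and the pale bars span the MF libraries. Il1b lay between 23.5% and 35.9% in all 4 treated libraries, whereas Il6 ran from 70.7% to 195.5% around the MF mean.

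Non-overlap of the treated libraries with MF was frequent for all genes and is given for that reason as a count. At 1 µA, 3 of the 5 genes (Il1b, Ccl2 and Cxcl1) lay below both MF libraries, and Cxcl10 did so too at 2 µA. Of all genes tested, 33.6% lay below MF without overlap at 1 µA and 31.4% at 2 µA. In the 4 treated libraries together, the same 3 of the 5 genes were below MF without overlap, as were 26.6% of all genes.

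The current densities were compared with each other to ask whether the response depended on dose. The mean level was lower at 2 µA than at 1 µA for each of the 6 genes, but none was called by edgeR or by DESeq2, and none had an unadjusted p below 0.05 by either tool. Of all genes tested, edgeR called 1 (0.00722%) and DESeq2 7 (0.0505%). The log2 fold change of 2 µA against 1 µA was -0.81 for Il6 (95% interval -1.80 to 0.17), -0.25 for Il1b (-0.66 to 0.17), -0.37 for Ccl2 (-1.15 to 0.42), -0.58 for Cxcl1 (-2.52 to 1.36) and -0.55 for Cxcl10 (-1.53 to 0.43). These intervals hold differences of more than 2-fold for Il6, Ccl2, Cxcl1 and Cxcl10. For Ccl5 the group sums were 5 counts at 1 µA and 2 counts at 2 µA. Ccl5 had 2 counts each in 1 µA replicate 1 and 2 µA replicate 1. Il6, Ccl2 and Cxcl10 (3 of the 5 other genes) were lower in both 2 µA libraries than in both 1 µA libraries, which held for 9.74% of all genes.

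The treated libraries did not rank alike for all 6 genes. Il6 and Ccl2 were highest in 1 µA replicate 1, followed by 1 µA replicate 2, 2 µA replicate 1 and 2 µA replicate 2. Cxcl1 was also highest in 1 µA replicate 1 and lowest in 2 µA replicate 2. Il1b was highest in 1 µA replicate 2 and lowest in 2 µA replicate 1. Over all 8 libraries, Pearson correlations of the vst values between pairs of the genes ran from 0.478 (Il6 with Ccl5) to 0.981 (Ccl2 with Cxcl1). These values describe libraries that fall into 4 groups, and the gap between CF and the other groups enters each of them.

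Against CF, the question was how far expression in treated cells lay from that of healthy fibroblasts. At 1 µA, the 5 genes other than Ccl5 were called higher than CF, beside 3.82% of all genes, and at 2 µA 4 (Il6, Il1b, Ccl2 and Cxcl10) were called higher, beside 2.89% of all genes. Il1b, although lower than in MF, stood 6.87 above CF on the log2 scale at 1 µA (SE 0.26, adjusted p = 0.000294) and 6.62 above it at 2 µA (SE 0.26, adjusted p = 0.000364). Il6 was 3.51 above CF at 1 µA (SE 0.48, adjusted p = 0.00997) and 2.69 at 2 µA (SE 0.47, adjusted p = 0.0231). For Ccl2 the log2 fold changes were 3.44 (SE 0.36, adjusted p = 0.00554) and 3.08 (SE 0.36, adjusted p = 0.00837).

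Cxcl10 was called at 1 µA (log2 fold change 3.29, SE 0.49, adjusted p = 0.0120) and at 2 µA (2.74, SE 0.49, adjusted p = 0.0243). For Cxcl1 the log2 fold change was 3.90 at 1 µA (SE 0.92, adjusted p = 0.0453) and 3.32 at 2 µA (SE 0.90, adjusted p = 0.0773, not called). Cxcl1 lost its call at 1 µA with the replicate number as a block (0.0784), with only 1 µA and CF in the fit (0.110) and without CF replicate 1 or either library of 1 µA or MF (adjusted p from 0.0547 to 0.182), while at 2 µA DESeq2 (0.00484) and the fit without CF replicate 2 (0.0170) called it. At 2 µA, Il6 lost its call without 2 µA replicate 1, CF replicate 1 or either MF library (adjusted p from 0.0523 to 0.0883), and Cxcl10 without CF replicate 1 or either library of 1 µA or 2 µA (0.0528 to 0.0802). Il6 lost its call at 1 µA without 1 µA replicate 1 (0.0638), and Cxcl10 without either 1 µA library (0.0777 and 0.0563). With only 2 µA and CF in the fit, Il6, Ccl2 and Cxcl10 were not called (0.124, 0.0952 and 0.101), and 2 of all genes were called in place of 695. Without CF replicate 2 the log2 fold changes against CF were larger, at 5.97 and 5.39 for Cxcl1 at 1 µA and 2 µA, 4.27 and 3.46 for Il6, and 4.02 and 3.66 for Ccl2. For Cxcl1 they were 3.09 and 2.51 without CF replicate 1. At 2 µA the value for Cxcl1 was 2.47 without 2 µA replicate 1 and 3.85 without 2 µA replicate 2. Il1b was called against CF at both current densities in each of these fits.

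**Figure D3:**
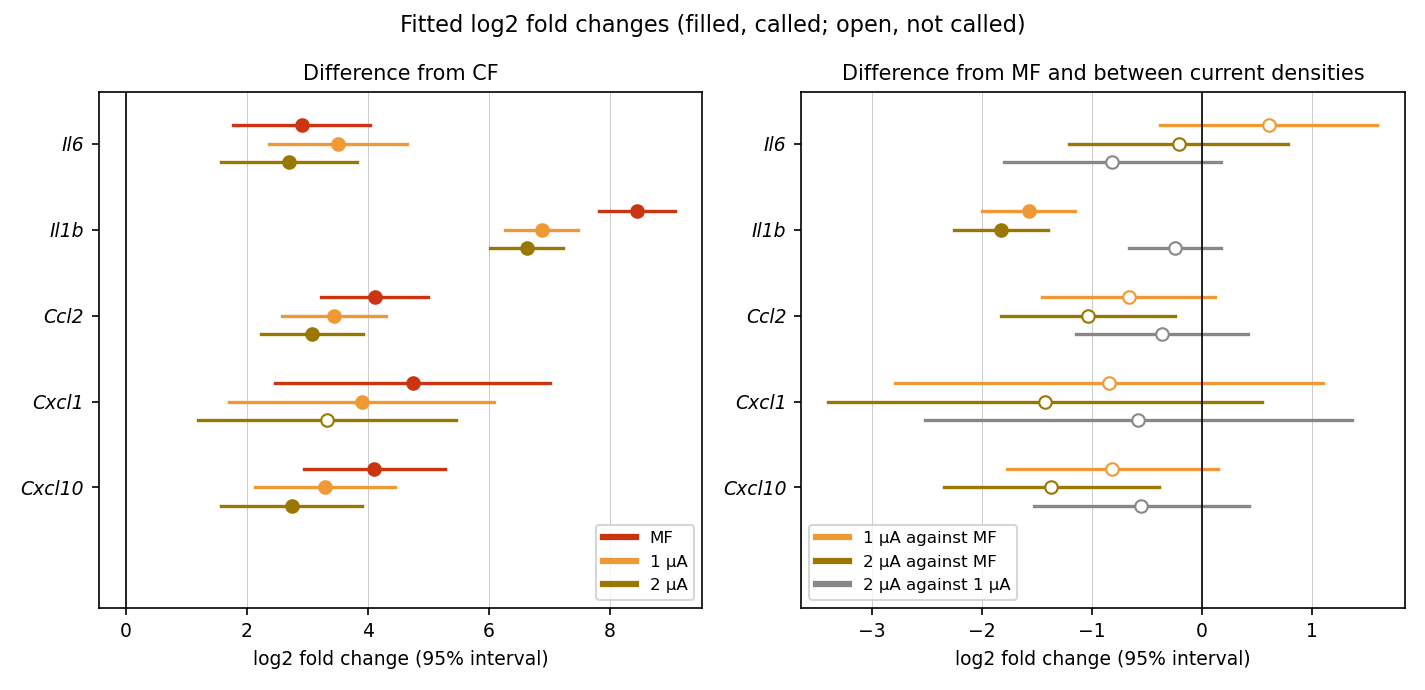
Fitted log2 fold changes (horizontal axis) with 95% intervals for Il6, Il1b, Ccl2, Cxcl1 and Cxcl10, against CF on the left (MF, 1 µA and 2 µA) and against MF or between current densities on the right; filled points were called and open points were not, and Ccl5 is left out because of its low counts. Against MF the points of Il1b alone are filled, at -1.58 and -1.82, and against CF the point of Cxcl1 at 2 µA alone is open.

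The order of the 4 group means was MF, 1 µA, 2 µA and CF for Il1b, Ccl2, Cxcl1, Cxcl10 and Ccl5. For Il6 it was 1 µA at 11.3 ± 4.59 CPM, MF at 7.46 ± 0.404, 2 µA at 6.44 ± 1.65 and CF at 1.01 ± 0.606 (SD, n = 2 each), and no pair among the first 3 of these passed the test. For Il1b, MF at 140.1 ± 7.91 CPM stood apart from 1 µA at 47.0 ± 4.71 and 2 µA at 39.6 ± 9.43, which did not pass the test against each other, and CF was at 0.401 ± 0.0803. For Ccl2, Cxcl1 and Cxcl10 the neighbours MF and 1 µA, and 1 µA and 2 µA, did not pass the test, while 2 µA and CF did for Ccl2 and Cxcl10 and did not for Cxcl1. For Ccl5 the last 3 places rest on group sums of 5, 2 and 1 counts. Outside the 6 genes, the profile most like their mean standardized vst values over the 8 libraries was that of ENSRNOG00000004089 (Pearson r = 0.997), followed by ENSRNOG00000012019 (r = 0.996), which the tables do not pair with symbols.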

How the data were processed

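RNA was sequenced from 2 libraries each of CF, MF, 1 µA and 2 µA cells, grouped by the sample titles. Reads were assigned by the authors to the rn6 transcriptome with salmon and summed per gene with tximeta, which gave the deposited estimated counts. The deposited normalized table (a signal) holds these counts over DESeq2 factors specific to gene and library, and the deposited vst table holds log2-like values made from it. A deposited table of whole-number counts covers 13341 genes (sum over libraries of 80 or more). Its pipeline is not given in the sources used here, although the labels describe fastp and STAR and the submitters' processing notes list DESeq2 1.28.1. It holds 5 of the 6 genes, without Ccl5.

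After rounding, the estimated counts were analysed with edgeR 4.0.16 (limma 3.58.1, R 4.3.3) by filterByExpr, TMM, robust dispersions and the quasi-likelihood F test in a fit of all 8 libraries with 4 residual degrees of freedom. P-values were adjusted by Benjamini-Hochberg over 13849 genes in each of 7 comparisons, and standard errors were derived from the F statistic. The script was tested on simulated counts in which 200 genes were changed 2-fold or 4-fold. Right calls numbered 92 of the 100 genes changed 4-fold and 34 of those changed 2-fold, with 2 wrong calls. A gene that was not called may thus still differ by about 2-fold. Ratios of Ccl5 counts carry exact (Clopper-Pearson) intervals. Figures were drawn with matplotlib 3.10.9 (Python 3.11.15).

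Named are the 6 ligands and the 2 genes of most similar pattern. These genes and all lists were chosen with earlier results of these data known. Lists of other chemokines, cytokines, receptors, NF-κB and interferon genes and of cell type markers were not run, because 0 genes of the RefSeq table carry an Ensembl ID. The alternatives were DESeq2 1.42.0, RLE and upper quartile scaling, other filters and thresholds, the whole-number table, only the groups compared, a replicate block, length offsets recovered from the deposited tables, and each library left out. Where a group then kept 1 library, it was assumed to vary like the other groups. No replicate was a copy of the other in its group, and copies across groups were not searched for. The chi-square per gene between replicates was 119 in CF, 16.9 in MF, 27.2 at 1 µA and 73 at 2 µA. The fit of all libraries nevertheless shares 1 estimate of the spread over the groups.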

Additional observations from a re-analysis of the deposited data

How the results depend on the processing

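The 6 genes were recomputed in 7 comparisons under each alternative that kept them. Cxcl10 and Ccl5 had no value with at least 10 counts in every library, and Ccl5 had none in the table of whole-number counts, nor with only the groups compared at 1 µA or 2 µA against CF or 2 µA against 1 µA. Of the resulting values, 709 kept direction and side of the threshold, 49 lost a call, 12 gained one and 4 changed sign without being called. The cause of these changes was not tested. Leaving out 1 library gave Il6 log2 fold changes of -0.50 to 0.028 at 2 µA against MF and of -0.047 to 0.38 for both treated groups against MF. For Ccl5 at 2 µA against CF, where both groups have 2 counts or fewer, the values ran from -2.20 to 3.15 and included -0.00227 without CF replicate 1.

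The counts that follow include Ccl5, whose calls cannot serve as support because it passed the filter only through MF. Counts with such a call do not describe the other genes. Against MF, Ccl5 was called at 1 µA with the compared groups alone. At 2 µA it was called with upper quartile scaling and in some fits without 1 library. Most fits of MF against CF, and of both treated groups against MF, called it too. Counts of all genes stand beside these counts. At an adjusted p below 0.01, MF against CF kept 3 called genes, 1 µA against MF 0, both treated groups against MF 1, 1 µA against CF 3 and 2 µA against CF 2, while all genes called went from 1438 to 498, 543 to 44, 936 to 253, 901 to 234 and 695 to 129. With the compared groups alone in the fit, the count was 2 for 1 µA and 2 for 2 µA against MF and 1 for 2 µA against CF, beside 1164, 839 and 2 of all genes. At 2 µA against MF it was 3 with DESeq2 and 2 with upper quartile scaling, beside 1040 and 690 of all genes. For both treated groups against MF it was 1 with at least 10 counts in every library, and 1 in the table of whole-number counts, beside 773 and 832 of all genes. Over the fits with 1 library left out, the count ran from 3 to 6 for MF against CF, 0 to 1 for 1 µA and 0 to 3 for 2 µA against MF, 0 to 2 for both treated groups against MF, 2 to 5 for 1 µA and 2 to 5 for 2 µA against CF, and stayed at 0 for 2 µA against 1 µA. All genes called ran in these fits from 336 to 1997, 4 to 886, 9 to 985, 17 to 1101, 138 to 1191, 292 to 1020 and 0 to 1, in the same order.

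The replicate numbers were not shown to pair the samples. Same-numbered libraries deviated from their group means with correlations of -0.172 to 0.242 across 13849 genes. The highest of these correlations was that of 1 µA with 2 µA. With the replicate block, the count of called genes was 6 for MF against CF, Ccl5 included, beside 1279 of all genes. Against MF it was 1 for 1 µA, 1 for 2 µA and 2 for both treated groups, Ccl5 included in the last. All genes called were 379, 485 and 821 in these comparisons. It was 4 for 1 µA and 4 for 2 µA against CF, and 0 for 2 µA against 1 µA. For the genes of like pattern, the same 2 IDs led with log2 CPM, and other IDs led with Spearman correlation. Counts of 0 to 3 outside MF limit what any setting can show for Ccl5.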
